A study of Zea mays with 29 samples.

Results

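The leaves compared here came from maize (Zea mays) plants with 1 copy of 1L, the long arm of chromosome 1, and from plants with the usual 2 copies. These were the 4 monosomic and 3 diploid RNA libraries of the second dosage series, 7 of the 29 libraries deposited and of the 27 made from RNA. All 7 were picked by their labels. The labels give the tissue and the ploidy state only. They name no inbred line, plant age or cross, and they do not say whether a library came from 1 plant or a pool, so p-values measure the spread between the libraries as they stand. The series design calls them biological replicates. The 3 trisomic libraries of the same series, with 3 copies of 1L and the same diploid controls, entered the fit and are given beside the monosomics where needed. The 17 RNA libraries of series 1, which share no library with series 2, serve as an independent set. They are 4 diploid, 5 trisomic, 3 tetrasomic, 3 haploid and 2 disomic haploid libraries.

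Losing a copy of a chromosome arm changes gene expression in more than one way. Genes on the arm lose templates, and their transcripts can fall in proportion to the copies (a gene dosage effect) or stay near the diploid level (dosage compensation). Genes on other chromosomes keep their copies but can shift because regulators encoded on the arm are out of balance with the rest of the genome; a shift opposite in direction to the dose is called an inverse effect. In maize, plants with altered arms are classically made with B-A translocations, in which a supernumerary B chromosome carries the arm and fails to separate at a pollen division, and the deposited DNA table is labelled for a 1La breakpoint, 1La being the usual name of such a translocation of 1L.

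The genes carry identifiers without names, products or positions, and 0 of the 40306 identifiers occurred in the RefSeq gene table used here. Gene functions, leaf marker genes and sequences could therefore not be given, and the leaf label was not checked against markers. The varied segment is taken as a single run of 3187 consecutively numbered identifiers, 7.91% of the table. Its edges came from series 1, and only the response to dosage there ties it to 1L. The filter on low counts kept 1797 identifiers inside the segment and 20028 outside it.

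The library totals of the 7 lay between 14115560 and 19860440 counted reads, spread over 25437 to 26961 detected genes. The monosomic libraries differed more from each other than the diploid ones did. The median over genes outside the segment of the SD of log2 CPM (CPM, the count scaled to a common library total after TMM factors) was 0.37 in monosomics, 0.25 in diploids and 0.20 in trisomics. Monosomic replicate 3 stood apart, with a median absolute log2 difference of 0.35 to 0.53 from the other monosomics, which differed from each other by 0.31 to 0.41. Without it the median SD in monosomics was 0.30.

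Expression of the segment fell to about the level that 1 copy in place of 2 would give. Its relative expression (the average log2 CPM inside the segment less the average outside it) was -0.77, -0.76, -0.78 and -0.75 in monosomic replicates 1 to 4. It was 0.21, 0.18 and 0.21 in diploid replicates 1 to 3. The libraries of a group thus lay within a few hundredths of each other and the groups did not overlap. The difference was -0.96 (log2, SE 0.0097), where the log2 of the copy ratio is -1. An exact two-sided permutation test over the 7 libraries gave p = 0.0571, the smallest that 4 against 3 libraries allow. The difference was -0.62 on log2(RPKM + 1), a scale that understates the change of low genes.

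Counted reads, which need no scaling factor, gave the same picture. Segment genes took 4.34, 4.29, 3.92 and 4.28% of the counted reads in monosomic replicates 1 to 4, and 8.04, 8.07 and 8.06% in the diploids. Counting error was small, with 95% Wilson intervals no wider than 0.0155 percentage points on either side. All monosomic libraries lay below all diploid ones, and replicate 3 was the lowest. The mean share was 4.21 ± 0.19% (SD, n = 4) against 8.06 ± 0.02% (SD, n = 3), and the odds of a read lying on the segment were 0.501 times those in diploids (exact two-sided permutation p = 0.0571, also after adjustment over the 2 segment measures). In trisomics the share was 11.7 ± 0.14% (SD, n = 3).

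**Figure D1:**
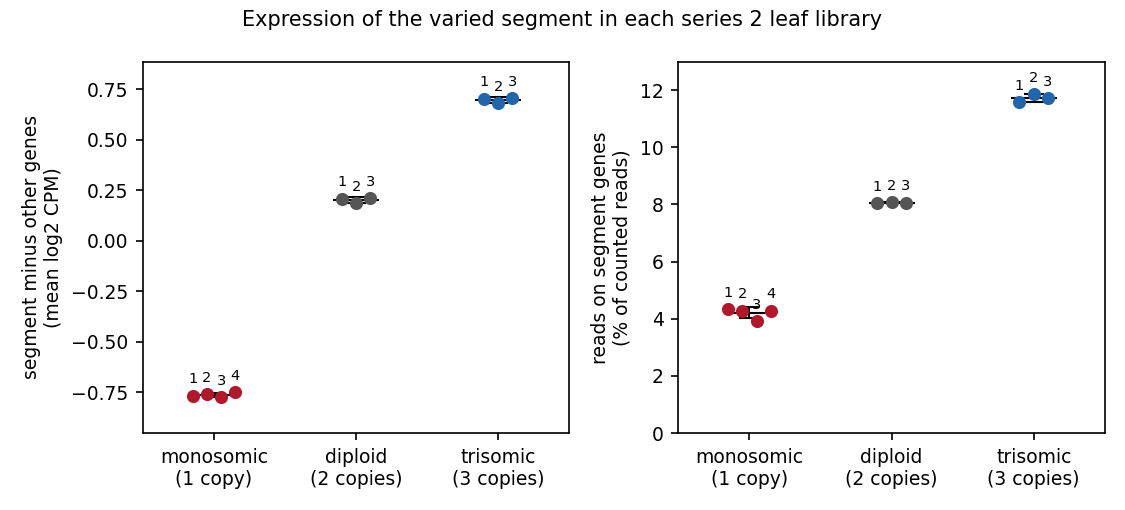
Relative expression of the segment (left, mean log2 CPM of segment genes minus that of other genes) and its share of counted reads (right, percent) in each series 2 library; numbers are replicates, black lines are means with SD. The 4 monosomic libraries lie between 3.92 and 4.34% of reads and the 3 diploid libraries between 8.04 and 8.07%.

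For single genes, edgeR's quasi-likelihood test called 870 of the 1797 segment genes, 48.4%, at a Benjamini-Hochberg adjusted p below 0.05. Of these, 867 were lower in monosomics (48.2%) and 3 were higher (0.167%). The count lower was 557 without diploid replicate 2, 552 without diploid replicate 3 and 525 in a fit of the 7 libraries alone. The median log2 fold change was -0.93, with quartiles of -1.15 and -0.70, and 95.6% of segment genes had a negative value. Monosomic and diploid values did not overlap for 1206 segment genes (67.1%), with 1203 lower (66.9%) and 3 higher (0.167%). The share called rose with the level of expression while the median fold change moved little. Among genes in the lowest quartile of mean CPM, up to 3.12, 11.6% were called lower with a median of -0.88, while in the highest quartile, above 29.6 CPM, 72.7% were called lower with a median of -0.96. The fall was a little smaller for the longest quartile of gene models, at a median of -0.87, than for the other quartiles of length, at -0.94 to -0.97.

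The fall was even along the segment. In 16 consecutive windows of up to 200 identifiers, the median log2 fold change lay between -0.99 and -0.84, and between 40.4 and 59.6% of tested genes were called lower in each. The edges were sharp, apart from the first identifiers. The last 50 tested genes inside the segment had a median of -0.97 and the next 50 beyond it -0.04. At the start, the 50 tested genes before the segment had a median of -0.04. The first 8 tested genes of the segment had a median of 0.23 in monosomics and 0.16 in trisomics, with 1 called, which was higher. The next 50 tested genes had medians of -0.90 in monosomics and 0.49 in trisomics. These first identifiers were placed inside the segment by series 1, but the cut after the 8 genes is the edge seen in series 2. The contrast with the next 50 was therefore set in part by series 2 itself and is not an independent test. It shows only that the 8 genes as a group did not fall in the monosomics.

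**Figure D2:**
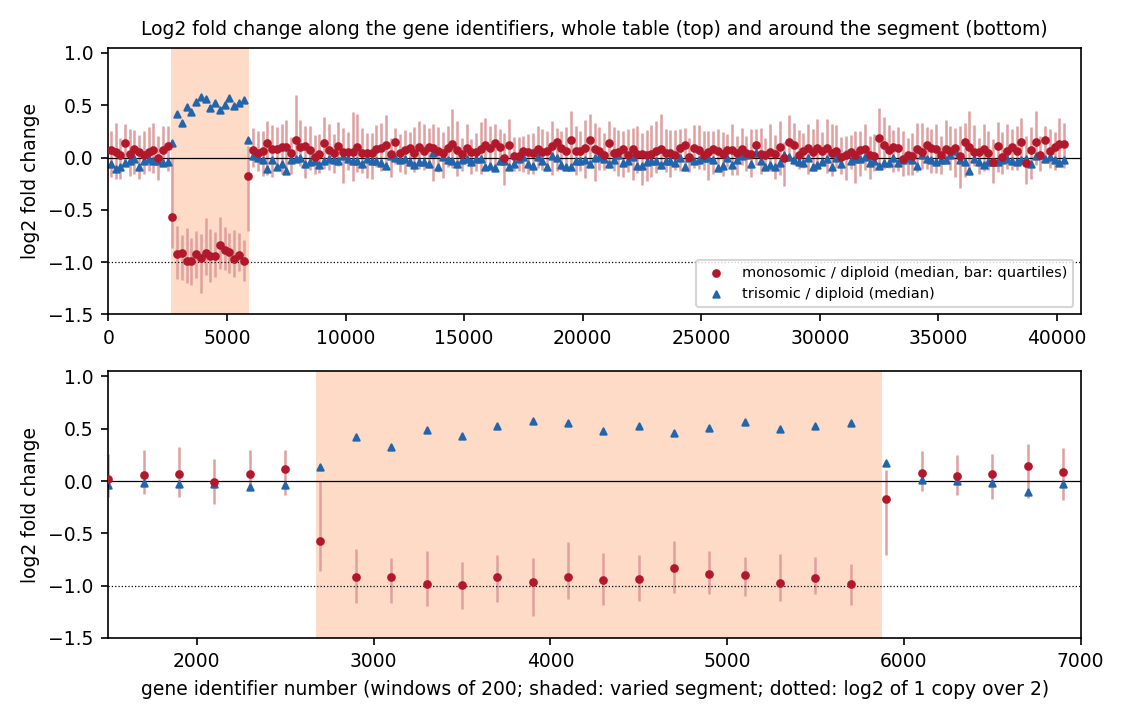
Median log2 fold change against series 2 diploids in windows of 200 identifier numbers, for monosomics (red circles, with quartiles) and trisomics (blue triangles), over the whole table and around the shaded segment; the dotted line marks the log2 of 1 copy over 2. Monosomic windows wholly inside the segment lie near -0.9 and those outside near 0.1 or 0.

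The most abundant segment transcripts fell further than the copy ratio. Genes were ranked by their mean CPM in the series 1 diploids, which were not part of the comparison. The 10 highest segment genes had a median log2 fold change of -1.49, between -1.81 and -0.99. EdgeR called 9 of the 10 lower, where 48.2% of all segment genes were called lower, and for 5 the 95% confidence interval lay wholly below -1. The highest of them stood at 1316, 1101, 1229 and 1091 CPM in monosomic replicates 1 to 4 and at 2507, 4714 and 5266 CPM in the diploids. It fell by 1.81 on the log2 scale (SE 0.23; adjusted p = 0.00212 in edgeR), with no overlap and diploid replicate 1 the lowest control. The second stood at 1685, 2398, 1996 and 2177 CPM in monosomics and at 4657, 7553 and 7012 CPM in diploids. It fell by 1.63 on the log2 scale (SE 0.19, adjusted p = 0.00204 in edgeR), again without overlap. The genes ranked 3 and 4 had nearly equal values in every library, at log2 fold changes of -1.58 and -1.56, and whether they share reads was not tested.

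This excess over the copy ratio was seen in the topmost band of abundance. The 17 segment genes among the top 1% of all genes had a median of -1.36 (quartiles -1.56 and -1.03), with 12 called lower (70.6%). Medians in the lower bands ran from -0.94 to -0.89. The share called lower in those bands ran from 15.1 to 73.1%, so it was not highest in the top band. In trisomics the 17 genes had a median of 0.43 against the same diploids, within the 0.36 to 0.53 of the lower bands. Outside the segment the top 1% also tended downwards, and there the copies were unchanged. Those 194 genes had a median of -0.14 in monosomics, with 63.4% negative and 9 called (4.64%), each of them lower. Of all outside genes 41.0% were negative and 0.694% were called lower. The median of -0.14 stood against medians of 0.05 to 0.11 in the lower bands. The median of the 194 genes in trisomics was -0.20, with the same diploid controls. In leaf as a whole, fewer cells of a type and less RNA per cell cannot be told apart.

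**Figure D3:**
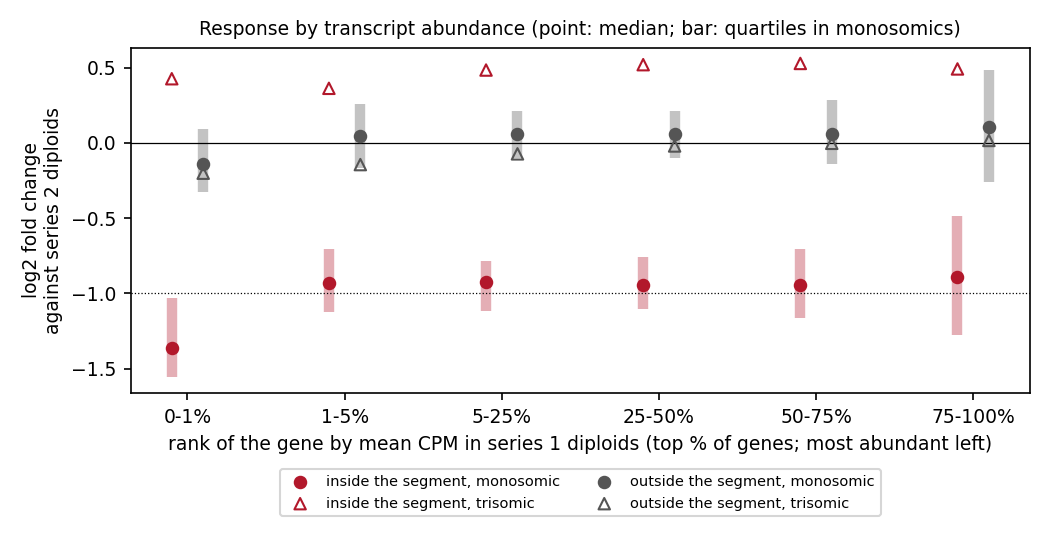
Median log2 fold change against series 2 diploids by abundance rank in series 1 diploids, for genes inside (red) and outside (grey) the segment, with quartiles for monosomics as bars and trisomics as open triangles. In the top 1% the monosomic median is -1.36 inside the segment and -0.14 outside it.

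The share of reads on such genes did not separate the groups. The 100 genes outside the segment that were highest in series 1 diploids took 28.9, 29.9, 33.2 and 28.5% of the outside reads in monosomic replicates 1 to 4, and 32.0, 35.3 and 36.2% in the diploids. Monosomic replicate 3 lay above diploid replicate 1, so the groups overlapped. The mean difference of -4.35 percentage points (SE 1.66) had an exact two-sided permutation p of 0.114. Of these 100 genes, 75 had a negative log2 fold change and the 7 called were lower, where 41.0% of all outside genes were negative and 0.694% were called lower. The median was -0.20 in monosomics and also -0.20 in trisomics against the same diploids.

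Segment genes were also classed by the 95% confidence interval of their log2 fold change. For 1226 genes (68.2%) the interval held -1 and not 0, here called proportional. For 107 genes (5.95%) it held 0 and not -1, here called compensated, and for 331 (18.4%) it held both. The compensated genes had lower levels than the proportional ones, with a median of 3.86 against 12.1 CPM, and wider errors, with a median SE of 0.33 against 0.22. Their values in series 1 were independent of this choice. In tetrasomics, which have 4 copies of 1L, the 99 compensated genes tested there had a median log2 fold change of 0.51 (quartiles 0.03 and 0.99), against 0.92 (0.66 and 1.13) for 1219 proportional genes and 0.89 for all 1770 segment genes tested in both series. In disomic haploids against haploids, 2 libraries against 3, the medians were 0.47 for compensated and 0.92 for proportional genes. The weaker response of the compensated genes as a group was thus also seen in other libraries, on average and with wide overlap.

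The most abundant compensated gene over the 7 libraries stood at 320.8, 264.1, 311.5 and 365.2 CPM in monosomic replicates 1 to 4 and at 338.4, 306.2 and 522.2 CPM in diploids. These groups overlapped. The monosomic log2 fold change of -0.30 (SE 0.21) had an adjusted p of 0.564 in edgeR, and the value in series 2 trisomics was 0.51. In series 1 the gene stood at 0.57 in tetrasomics and 1.15 in disomic haploids against haploids, so it showed no weak response in the latter. For a further 89 segment genes (4.95%) the interval lay below -1, with a median of -2.04, and 9 genes (0.501%) had an interval above 0. For the remaining 35 (1.95%) the interval lay between -1 and 0, with a median of -0.56. These intervals are per gene and were not adjusted for the number of genes. The 89 genes with intervals below -1 had a median of 1.03 in series 1 tetrasomics, close to the 0.89 of all segment genes.

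Among called, non-overlapping segment genes averaging 5 CPM or more, the largest fall was that of Zm00004b004451. It stood at 0.511, 1.07, 0.679 and 1.65 CPM in monosomic replicates 1 to 4 and at 14.5, 10.2 and 9.25 CPM in the diploids. Every monosomic value was below every diploid one by a wide margin. With SE 0.40, the log2 fold change was -3.49 (adjusted p = 0.00202 in edgeR). The value was 1.09 in series 2 trisomics, which did not pass the test (adjusted p = 0.341 in edgeR). In series 1 it was 2.93 in tetrasomics against diploids and 3.60 in disomic haploids against haploids.

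Only 3 segment genes rose by the test. The largest rise under the same conditions was that of Zm00004b003231, at 5.47, 7.31, 19.3 and 6.75 CPM in monosomic replicates 1 to 4 and 0.627, 1.04 and 1.58 CPM in diploids. Replicate 3 was far above the others and the groups did not overlap. The log2 fold change was 3.16 (SE 0.51; adjusted p = 0.00429 in edgeR), and 2.59 without monosomic replicate 3. In series 1 the value was -2.44 in tetrasomics and 0.37 in disomic haploids. Another lay among the 8 tested genes at the start of the segment, before the edge seen in series 2, and its groups overlapped. The last had 45, 32, 18 and 83 reads in monosomics and 0, 1 and 1 in diploids, and also 13, 29 and 15 reads in trisomics.

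Outside the segment, 331 of 20028 genes were called in edgeR, 1.65%, with 192 higher in monosomics (0.959%) and 139 lower (0.694%). The median log2 fold change there was 0.067, with quartiles of -0.14 and 0.28. It moved with the scaling and kept its sign, at 0.041 when TMM factors came from outside genes and 0.095 with RLE size factors. Monosomic and diploid values did not overlap for 1857 outside genes (9.27%), with 1075 higher (5.37%) and 782 lower (3.9%). If the labels carried no information, a gene would separate 4 from 3 libraries in this way with probability 0.0571. Much of this count therefore needs no response to the copy number. The counts rested on the libraries used. They were 65 higher and 32 lower without diploid replicate 2, 95 and 60 without diploid replicate 3, 121 and 76 without monosomic replicate 1, 118 and 88 without monosomic replicate 2, and 305 and 248 without monosomic replicate 3. DESeq2 called 475 higher and 254 lower, and edgeR on the 7 libraries alone 109 and 45.

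The called genes outside were spread over the whole table. In 37 windows of 1000 identifier numbers with at least 300 tested outside genes, between 0.329 and 3.30% were called, from 2 to 17 genes per window. The medians of these windows lay between 0.03 and 0.10, so none of these 37 windows shifted as the segment did. The balance of rises and falls differed with abundance, in a way that depended on the ranking. In the lowest quartile of mean CPM 74 genes were higher and 40 lower, and in the highest 31 were higher and 38 lower. Ranked by series 1 diploids, the lowest band, from 75 to 100% down the ranking, held 64 higher and 49 lower, and falls outnumbered rises only in the top 5%, with 9 lower in the top 1% and 5 lower against 2 higher between 1 and 5%. The balance also differed with length. In the longest quartile of gene models, at a median log2 fold change of 0.11, 49 genes were higher and 14 lower. In the shortest, at 0.05, 50 were higher and 56 lower. The part of RNA integrity or library preparation in this was not tested.

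Genes called lower outside the segment included more genes above 100 CPM than those called higher. Of the 139, 19 had a mean above 100 CPM over the 7 libraries, against 6 of the 192 called higher. Of all 20028 outside genes, 1355 had such a mean. A mean above 10 CPM was seen for 62 of the 139, 82 of the 192 and 10400 of all outside genes. The most abundant of the 139 was Zm00004b024196. It stood at 5013, 6379, 5539 and 6612 CPM in monosomic replicates 1 to 4 and 10037, 15910 and 11960 CPM in diploids. Its level in monosomics was 0.466 times the diploid one, about the ratio shown by segment genes, and the groups did not overlap. The log2 fold change was -1.10 (SE 0.18; adjusted p = 0.00502 in edgeR). Values elsewhere were 0.10 in series 2 trisomics (adjusted p = 0.958 in edgeR) and 0.42 in series 1 tetrasomics. The next 3 by abundance had log2 fold changes of -1.07, -0.94 and -1.28, with adjusted p of 0.00525, 0.0338 and 0.0419 in edgeR.

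Genes called higher outside were mostly of low or middle level. Above 3 diploid reads in all, 171 of the 192 had a median log2 fold change of 1.33. The most abundant, Zm00004b010685, stood at 338.0, 498.9, 297.4 and 80.8 CPM in monosomic replicates 1 to 4 and 75.8, 42.6 and 49.5 CPM in diploids. Replicate 4 lay just above the highest diploid, and the other 3 several times higher. The log2 fold change was 2.44 (SE 0.55; adjusted p = 0.0255 in edgeR), and the gene was not called in 7 of 17 alternatives, where the adjusted p reached 0.129 without diploid replicate 2. Its gene model has 579 bp, and it stood at 19.4, 6.32 and 16.0 CPM in series 2 trisomics, below every diploid library, a difference that did not pass the test (adjusted p = 0.227 in edgeR). In series 1 its log2 fold change was -0.03 in tetrasomics and 0.87 in trisomics.

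**Figure D4:**
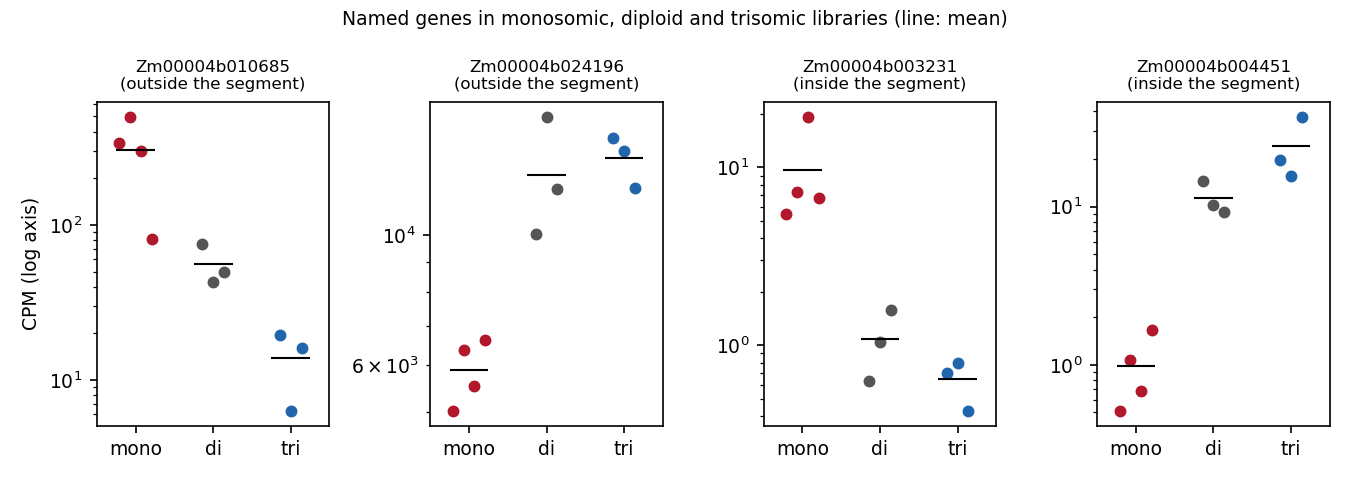
CPM on log axes of the 4 named genes in each monosomic (red), diploid (grey) and trisomic (blue) library of series 2, with group means as lines. Monosomic and diploid values do not overlap for any of the 4, which the naming rule required.

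The other 21 genes called higher outside had at most 3 reads in the 3 diploid libraries together. In each trisomic library 14 of these reached 10 reads, and 13 were called higher in trisomics too. Over all identifiers, 12 had at least 10 reads in every monosomic library and at most 3 in the diploids together, 11 of them outside the segment. Of the 12, 9 also reached 10 reads in every trisomic library. The reverse was not found, as 0 identifiers had at least 10 reads in every diploid and at most 3 in the monosomics together. A further 2 of the 12 had at most 3 reads in the trisomics together, as in the diploids. Whether the diploid controls carried other alleles was not tested.

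Trisomics of the same series differed from the same diploids at far fewer outside genes, 42 of 20028 or 0.21% in edgeR, with 38 higher (0.19%) and 4 lower (0.02%). In trisomics the test also called few segment genes, 16 of 1797 against 870 in monosomics, although their median was 0.50. Fewer calls outside therefore do not measure a smaller response. The 192 genes higher in monosomics had a median log2 fold change of -0.25 in trisomics, and 128 of them had the opposite sign there, against 10416 of all 20028 outside genes. Of the 192, 20 were called in trisomics. These were 13 of the 21 nearly absent from diploids, all higher, and 7 of the other 171, with 4 higher and 3 lower. The 139 lower genes had a median of 0.18, with 87 of opposite sign. These comparisons share the diploid libraries. Tested against each other directly, monosomics and trisomics differed at 1828 outside genes in edgeR, 9.13%, with 1072 higher in monosomics (5.35%) and 756 lower (3.77%). Of the 192 and 139 genes, 145 and 126 were among these, but the same monosomic libraries had chosen them.

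Series 1 gave values that do not share libraries with the monosomics. Of the genes higher in monosomics, 177 were tested there, and 118 of them (66.7%) had a negative log2 fold change in tetrasomics, against 56.9% of all 19411 outside genes tested in both series. Their median was -0.45 in tetrasomics, against -0.06 for all. In disomic haploids against haploids, 2 libraries against 3, 125 of the 177 (70.6%) were negative, against 56.3% of all, with a median of -0.53. In edgeR 17 of the 177 were called in tetrasomics, each of them lower, where 1.88% of all outside genes were called lower and 0.865% higher. Without series 1 diploid replicate 1, 26 of 176 were lower and 2 higher. All 19391 outside genes held 1058 lower and 466 higher in that fit. In disomic haploids 17 of the 177 were called lower and 7 higher, where 444 of all 19411 were lower and 291 higher. In series 1 trisomics the share was nearer to that of all genes, with 104 of the 177 (58.8%) negative against 54.0%, at a median of -0.13 against -0.03. Of the 177, 8 were called lower in trisomics and 0 higher, where 64 of all 19411 were lower and 36 higher. The genes higher with 1 copy of 1L thus had negative values more often than outside genes in general in tetrasomics and disomic haploids, and by a smaller margin in trisomics.

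The genes lower in monosomics showed no such uniform picture in series 1. Of 136 tested, 97 (71.3%) had a positive log2 fold change in series 1 trisomics, against 46.0% of all, with a median of 0.32. In edgeR 0 of the 136 were called in that comparison. Without series 1 diploid replicate 1, 5 were higher and 1 lower, where all 19391 held 145 higher and 228 lower. In tetrasomics 73 (53.7%) were positive against 43.1% of all, with a median of 0.03, or 0.21 without series 1 diploid replicate 1. Of the 136, 6 were called higher in tetrasomics and 2 lower, where 168 of all 19411 were higher and 365 lower. Without that replicate 12 were higher and 4 lower, where all 19391 held 466 higher and 1058 lower. In disomic haploids against haploids 56 (41.2%) were positive against 43.7% of all, with a median of -0.25. There 3 of the 136 were called higher and 6 lower, where 291 of all 19411 were higher and 444 lower. In haploids against diploids, where the whole genome is reduced and 1L stays in balance, the medians were -0.20 for these genes and 0.12 for the genes higher in monosomics. The haploid, tetrasomic and trisomic comparisons of series 1 use the same diploids, and no p is given because genes are not independent of each other.

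**Figure D5:**
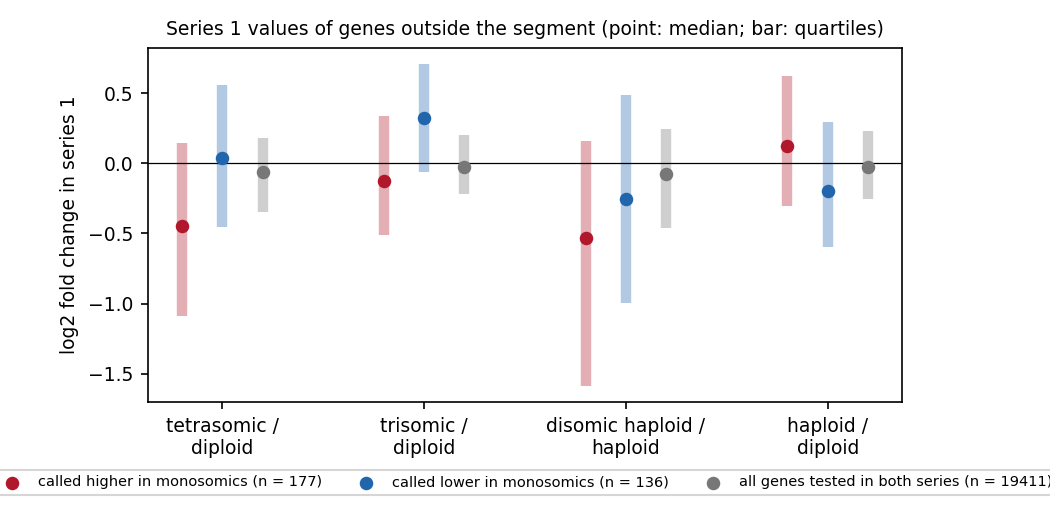
Median log2 fold change with quartiles in 4 comparisons of series 1, for outside genes called higher (red) or lower (blue) in series 2 monosomics and for all outside genes tested in both series (grey). Genes higher in monosomics have medians of -0.45 in tetrasomics and -0.53 in disomic haploids, against -0.06 and -0.08 for all. The disomic haploid group has 2 libraries.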

How the data were processed

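Leaf RNA was extracted with TRIzol and made into poly(A) libraries with TruSeq, per the labels' protocols. Bowtie, TopHat, Cufflinks and Cuffdiff appear in the submitters' processing notes. What each did, the build and the read counter are not given there. The authors deposited raw counts per gene model and RPKM values; 100% of nonzero RPKM values equalled the deposited count scaled by length and library total (relative tolerance 0.001).

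Counts of the 10 series 2 libraries were fitted in edgeR 4.0.16 (R 4.3.3; filterByExpr, TMM, group as the only term, robust quasi-likelihood F-tests, two-sided), with p-values adjusted over all 21825 kept genes. The biological coefficient of variation was 0.273. The 17 series 1 libraries were fitted likewise. The scripts were tested on simulated data. Log2 CPM used a prior count of 2. DESeq2 1.42.0 and limma 3.58.1 (limma-trend) were alternatives.

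At most 2 rising and 2 falling identifiers were named, among genes with adjusted p below 0.05 and no overlap: the most abundant rise and fall outside the segment, and the largest rise and fall inside it at a mean of at least 5 CPM. Segment, members and lists were chosen with earlier results of these data known. The ranking by series 1 abundance was added after seeing the data. Leaf marker lists could not be matched to identifiers. No molecular identifiers are described, so the Wilson intervals of the read share cover counting error only. The confidence intervals of log2 fold changes came from the quasi-likelihood fit and include the spread between libraries. The DNA table and the series 1 RPKM table were not used.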

Additional observations from a re-analysis of the deposited data

Results flagged for a closer look

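Monosomic replicate 3 lay apart from the other 3 monosomic libraries in its share of reads on the segment, at 3.92% against 4.28 to 4.34%. The gap was 0.865 of the group's range, above Dixon's 95% critical value for 4 samples. The same library lay apart for Zm00004b003231, at 19.3 CPM against 5.47 to 7.31, with a gap of 0.867 of the range. Of 7 measures tested in this way 2 passed, where chance passes about 1 in 20 groups.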

How the results depend on the processing

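The segment's relative expression kept its direction in all alternatives, from -0.97 to -0.62, and its share of reads likewise, from -3.89 to -3.75 percentage points. Counts of genes outside the segment did not keep their size. With DESeq2 475 were higher and 254 lower, with the compared libraries alone 109 and 45, and 65 to 305 were higher and 32 to 248 lower when a library was left out. Inside the segment 525 genes were lower with the compared libraries alone, and 552 to 950 when a library was left out, with 2 to 4 higher. Outside the segment, monosomics differed from trisomics at 1338 to 2139 genes when a library was left out. The median log2 fold change outside was 0.095 with DESeq2 and with RLE size factors, 0.039 with limma-trend, 0.041 with TMM from outside genes, 0.090 without a filter and 0.086 with the compared libraries alone, and 0.038 to 0.097 without a library. Inside, it was -0.90 with DESeq2, -0.90 with RLE size factors, -0.96 with TMM from outside genes, -0.89 without a filter and -0.91 with the compared libraries alone, and -0.96 to -0.90 without a library. The cause of these moves was not tested. Genes with few reads limit the calls: 11.6% of segment genes in the lowest quartile of level were called lower.

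The labels do not say whether the replicate numbers pair the samples. Same-numbered monosomic and diploid libraries deviated together with r of -0.0667 to 0.0957 for title numbers and -0.149 to 0.0358 for S numbers. Little shared deviation was thus seen, which cannot show that the libraries were unpaired. With the S number as a replicate block 68 genes were higher and 49 lower outside, 519 were lower inside, 975 differed from trisomics and the median inside was -0.94. With the title number as a block the medians were 0.033 outside and -0.95 inside.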
